A study of Rattus norvegicus with 19 samples.

Results

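The 13 radiation-induced mammary carcinomas of this rat series carried very different amounts of milk gene transcript, and the 6 with the most were set against the 6 with the least. The labels do not make this division. The groups were chosen by values measured on the arrays themselves, through a milk score that averages the normalised log2 intensities of Wap, Csn2, Csn1s1, Csn3 and Lalba, each centred on its mean over the 13 carcinomas. Carcinomas 7, 11, 6, 4, 12 and 10 formed the milk-gene-high group, carcinomas 13, 2, 9, 1, 8 and 5 the milk-gene-low group, and carcinoma 3, at the median, was left out. A normalised log2 intensity of 0 is the 75th percentile of that array, so a value is comparable between arrays for the same probe and not between genes.

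All carcinomas came from females of an F1 cross between Sprague-Dawley and Copenhagen rats, and the labels call them induced by radiation. Rats of the series were either untreated or received 4 Gy of caesium gamma rays to the whole body, at 0.5 Gy per minute, when 7 weeks old. The other 6 of the 19 arrays hold normal mammary glands of the same cross, whose irradiation status the labels do not give, and they serve here as a level to read the carcinomas against. Nothing in the labels records tumour histology, pregnancy, lactation or age at sampling, and each sample was taken as a separate one.

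Milk is made by the luminal secretory cells of the mammary alveoli. Prolactin, acting through its receptor Prlr and the transcription factor Stat5, together with the transcription factor Elf5, switches on the genes of the caseins and whey proteins during pregnancy. The same cells build fatty acids from glucose and acetate, pack them into droplets and release the droplets wrapped in membrane as milk fat globules. Rodent carcinomas of the gland can keep parts of this programme.

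The values that chose the groups are given as a description and were not tested. In the milk-gene-high group the scores were 4.32 in carcinoma 7, 2.98 in carcinoma 11, 2.32 in carcinoma 6, 2.04 in carcinoma 4, 1.95 in carcinoma 12 and 1.71 in carcinoma 10. The carcinoma left out had 1.51. In the milk-gene-low group the scores were 1.11 in carcinoma 13, 0.02 in carcinoma 2, -1.07 in carcinoma 9, -2.97 in carcinoma 1, -5.10 in carcinoma 8 and -8.83 in carcinoma 5. The last carcinoma inside the high group and the first inside the low group thus lay close together, at 1.71 and 1.11, while the low group was spread over a far wider range than the high group. The words high and low are relative: carcinoma 13, the uppermost of the low group, had a Wap intensity of 6.74, above 5 of the 6 milk-gene-high carcinomas.

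Wap, the whey acidic protein gene, ranged from 4.39 to 8.28 in milk-gene-high carcinomas (median 5.00) and from -6.61 to 6.74 in milk-gene-low carcinomas (median -0.15). Csn2, which encodes beta-casein, ranged from 6.10 to 9.10 (median 7.26) in the high group, against -8.59 to 5.82 (median -0.82) in the low group. Its probe was well above background on all 6 high arrays and on 4 of 6 low arrays. Csn2 separated the groups without overlap, and Wap did not.

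Csn1s1, the alpha-s1-casein gene, ranged from 5.85 to 8.53 in milk-gene-high carcinomas (median 7.20) and from -1.73 to 6.96 in milk-gene-low carcinomas (median 4.03). Csn3, encoding the kappa-casein that stabilises the casein micelle, ranged from 5.95 to 7.72 (median 6.76) in the high group, against -3.49 to 6.19 (median 5.03) in the low group. Lalba, the alpha-lactalbumin that turns galactosyltransferase into lactose synthase, ranged from 4.94 to 8.83 (median 6.42) in the high group, against -2.88 to 4.92 (median 3.64) in the low group. The genes did not decline in step. Carcinoma 1 was among the lowest for Csn2 (-7.38) but had 5.23 for Csn3 and 4.92 for Lalba, and carcinoma 2 kept 6.96 for Csn1s1 beside 1.88 for Wap. Carcinomas 8 and 5 had the 2 lowest values for every score gene except Csn2, where carcinoma 1 lay below carcinoma 8.

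In the 6 normal glands the milk genes were also abundant, with medians of 8.27 for Wap, 8.85 for Csn2, 8.27 for Csn1s1, 7.55 for Csn3 and 7.64 for Lalba. All 6 milk-gene-low carcinomas lay below every normal gland for each of these genes except Csn1s1, where 5 did. Of the milk-gene-high carcinomas, 5 lay below every gland for Wap, 4 for Csn3, 3 for Csn2, 2 for Csn1s1 and 1 for Lalba. The high group thus overlapped the glands and mostly did not exceed them. Gland arrays were dimmer, with a median 75th percentile of raw intensity of 461, against 889 on high and 1155 on low arrays. The median share of spots well above background was 66.7% on gland arrays, against 80.2% on high and 81.3% on low arrays. The part of array brightness in levels read against the glands was not tested. In bulk RNA of this kind, fewer cells of a type and less RNA per cell cannot be told apart.

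**Figure D1:**
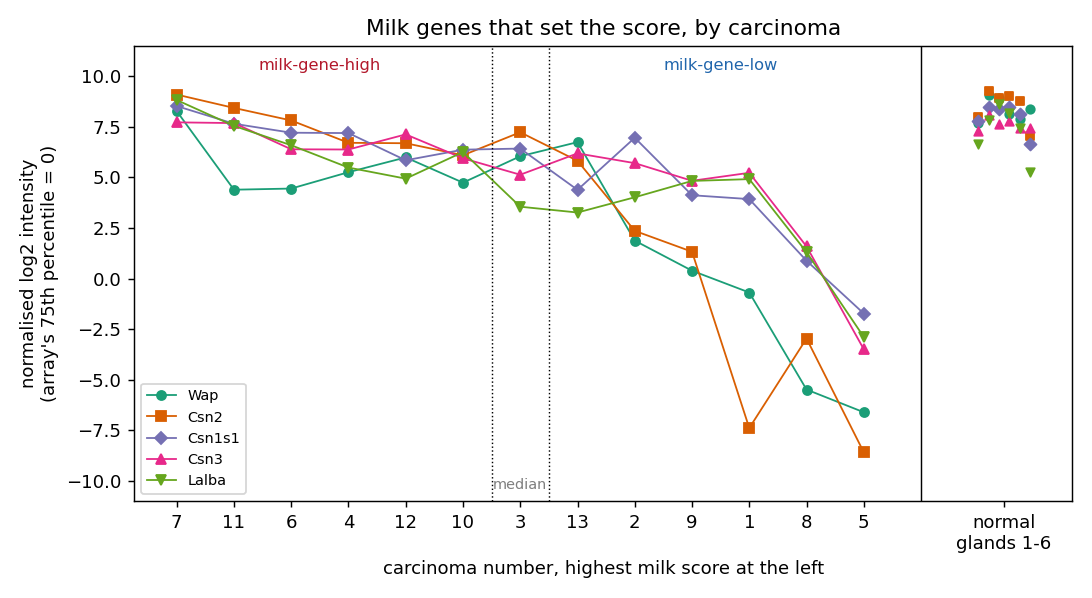
Normalised log2 intensity (vertical axis, 0 is the array's 75th percentile) of the 5 genes that make up the milk score in each carcinoma, ordered by score from the highest at the left, with the 6 normal glands at the right. The milk-gene-high carcinomas stay at 4.39 or above for every gene, while the milk-gene-low carcinomas spread down to -8.59. Lines join values of a gene for reading only.

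The casein genes are textbook targets of Stat5, whose binding motif is TTCNNNGAA, a palindrome that reads the same on both strands. The sequences below show that letter pattern in the promoters of 4 casein genes and of Glycam1. Only promoters that hold a match are printed. They are from RefSeq promoters on GRCr8, 57 bases each, 5′ to 3′ on the gene's strand, with the matching letters in capitals. Csn2 lies at chr14:20601703-20601759 on the plus strand, Csn1s1 at chr14:20638917-20638973, Csn1s2a at chr14:20574541-20574597, Csn1s2b at chr14:20545686-20545742 and Glycam1 at chr7:136561442-136561498, the last 4 on the minus strand.
Csn2: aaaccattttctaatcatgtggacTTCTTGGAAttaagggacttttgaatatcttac
Csn1s1: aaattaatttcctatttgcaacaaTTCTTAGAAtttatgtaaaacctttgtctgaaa
Csn1s2a: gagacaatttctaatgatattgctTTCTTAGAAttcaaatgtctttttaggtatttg
Csn1s2b: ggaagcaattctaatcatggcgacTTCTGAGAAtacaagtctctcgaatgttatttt
Glycam1: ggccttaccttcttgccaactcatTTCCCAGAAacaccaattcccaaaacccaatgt
In these 4 casein promoters the match began 97 bases upstream of the transcription start in Csn2, 100 in Csn1s1, 102 in Csn1s2a and 100 in Csn1s2b. In Glycam1 it began 175 bases upstream. Over the 250 upstream bases, 2566 of 33469 rat promoters in the table held at least 1 such match (7.67%). The pattern was found in Csn2 and Csn1s1 but not in Wap, Csn3 or Lalba among the 5 score genes. Of the promoters held for the gene lists, 4 of 16 for other milk proteins had a match. For milk fat globule genes 0 of 16 had a match, and for milk fat synthesis genes 1 of 19. The pattern occurred 4 times in the promoter of Cish, the Stat5-induced inhibitor of cytokine signalling described further on. Fabp3, Bcl2l15 and Acsl1, genes that passed the group comparison, held none in their 250 bases. A match is only a run of letters in this window, and binding was not measured.

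The groups were not balanced over the 3 slides. Slide 1 held 3 milk-gene-low carcinomas and none of the high group, slide 2 held 3 high and 1 low, and slide 3 held 3 high and 2 low. Slides 1 and 3 shared a scan day and slide 2 had its own. The 75th percentile of raw intensity was 485 to 1428 on high arrays, against 873 to 1293 on low arrays, and 62.3 to 82.9% of spots were well above background on high arrays, against 72.0 to 84.2% on low arrays. Neither difference passed (2-sided exact permutation tests over 924 splits, p = 0.288 for the log2 of the percentile and p = 0.723 for the share of spots). Carcinoma 7, with the highest score, had the lowest share of spots above background of all carcinomas. Sample codes in the labels were letters for carcinomas 11 and 12 of the high group and 13 of the low group, and numbers for the other carcinomas.

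Across the rest of the transcriptome, milk-gene-high carcinomas differed from milk-gene-low carcinomas in few genes. Of 12598 genes tested, 5 were higher in the high group (0.0397%) and none was lower, by limma with Benjamini-Hochberg adjustment at a threshold of 0.05. The 5 were Fabp3, Fasn and Acsl1, which carry, build and activate fatty acids, the P-type ATPase gene Atp13a4, and Bcl2l15, a member of the Bcl-2 family. Of these, Atp13a4 met the filter on dim probes only through the high group, its probe being well above background on 1 of 6 low arrays. At an unadjusted p under 0.05, 411 genes were higher (3.26%) and 274 were lower (2.17%). Groups did not overlap for 32 genes that were higher (0.254%) and 10 that were lower (0.0794%). The median difference over all genes was 0.01 on the log2 scale, with 51.3% of genes above 0.

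Because the carcinomas were divided by measured milk genes, such a p does not say what a treatment did. It sets the gap between the 2 groups against the spread within them over 12 tumours. Nor does it rank genes by how closely they followed the milk genes. Fasn passed with a correlation of 0.738 with the score over the 13 carcinomas, while Csn1s2a, with 0.935, did not pass. The number of higher calls rested on single arrays: it fell to 0 when carcinoma 11, 6, 4, 2, 8 or 5 was left out, to 2 without carcinoma 9 or 1, and was 4 to 7 without any of the others. Leaving out carcinoma 13 also gave 1 lower call.

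**Figure D2:**
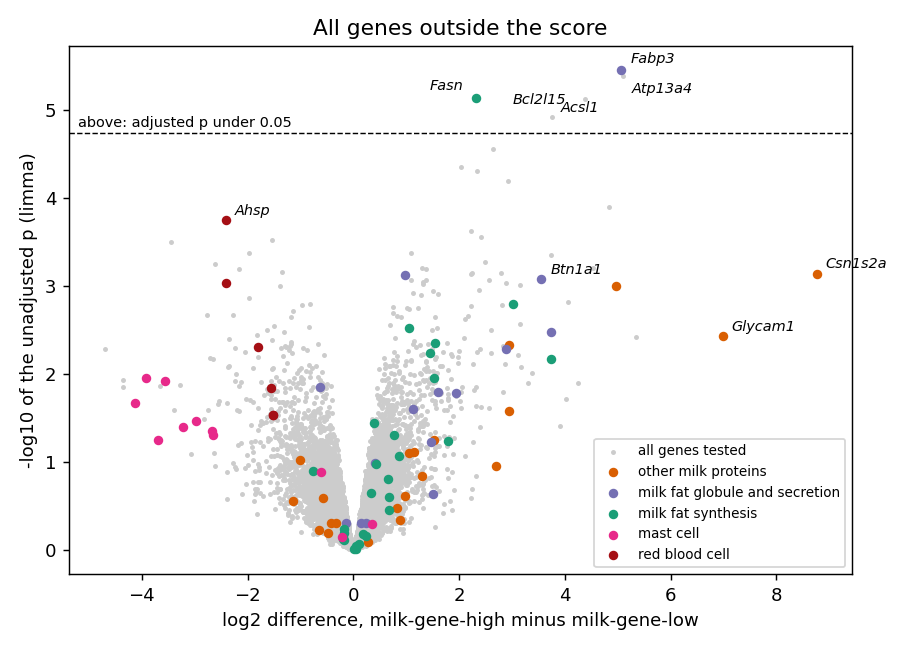
Each point is a gene, with the log2 difference, milk-gene-high minus milk-gene-low, on the horizontal axis and -log10 of the unadjusted limma p on the vertical axis. Colours mark 5 gene lists. The 5 genes above the dashed line have an adjusted p under 0.05 and all lie to the right of 0, while Csn1s2a and Glycam1 have the largest differences among the labelled genes but wide errors.

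Fabp3 encodes the cytosolic fatty acid binding protein of heart and mammary gland, which ferries fatty acids through the cell. Its intensity ranged from 1.11 to 4.32 (median 2.69) in milk-gene-high carcinomas and from -4.14 to -0.33 (median -2.36) in milk-gene-low carcinomas. Every high carcinoma lay above every low one, the nearest being carcinomas 12 and 1. The difference was 5.07 ± 0.67 (SE, n = 6 each, limma adjusted p = 0.0232), or 33.6-fold. Normal glands had 1.36 to 5.59, so that all 6 low carcinomas lay below every gland and 5 of 6 high carcinomas did not.

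Fasn, the fatty acid synthase gene, ranged from 4.82 to 6.87 (median 5.83) in the high group, against 2.80 to 4.18 (median 3.35) in the low group. The difference was 2.32 ± 0.33 (SE, n = 6 each, limma adjusted p = 0.0232), or 5.00-fold. Glands had 4.81 to 5.60, with every low carcinoma below them and no high carcinoma below them. Carcinoma 7 was highest, at 6.87, and 5 of the 6 high carcinomas lay between 4.82 and 5.95.

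Acsl1 encodes the long-chain acyl-CoA synthetase that activates fatty acids for triglyceride synthesis or oxidation. Its intensity ranged from 2.09 to 5.62 (median 3.86) in milk-gene-high carcinomas, against -0.86 to 1.64 (median -0.27) in milk-gene-low carcinomas. The difference was 3.76 ± 0.55 (SE, n = 6 each, limma adjusted p = 0.0302), or 13.5-fold. Among low carcinomas, carcinoma 13 stood apart at 1.64, with the next at 0.05. It is also the low carcinoma with the highest milk score.

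Atp13a4, a cation-transporting ATPase gene of the P5 class, ranged from -3.92 to -0.0023 (median -1.63) in the high group, against -8.41 to -5.55 (median -7.30) in the low group. The difference was 5.10 ± 0.68 (SE, n = 6 each, limma adjusted p = 0.0232). Its probe was well above background on all 6 high arrays but on 1 of 6 low arrays, so the low values are mostly near the array's floor and the size of the difference depends on the background correction. It met the filter on dim probes, at least 6 of 13 carcinoma arrays, only through the high group. Its entry to the test was thus tied to the grouping. With a normexp background correction the direction held and Atp13a4 was the gene among the 5 that missed the threshold.

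Bcl2l15 ranged from -1.49 to 1.62 (median -0.26) in milk-gene-high carcinomas, against -6.25 to -3.04 (median -4.33) in milk-gene-low carcinomas. The difference was 4.39 ± 0.62 (SE, n = 6 each, limma adjusted p = 0.0232), or 20.9-fold. The normal glands themselves were divided for this gene, with glands 1 and 6 at -2.76 and -3.99 and the other 4 between 0.37 and 0.74. Carcinoma 3, left out of the comparison and just below the high group in score, lay within the high group's range for all 5 genes, with 3.26 for Fabp3, 5.33 for Fasn, 3.35 for Acsl1, -2.65 for Atp13a4 and -0.88 for Bcl2l15.

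**Figure D3:**
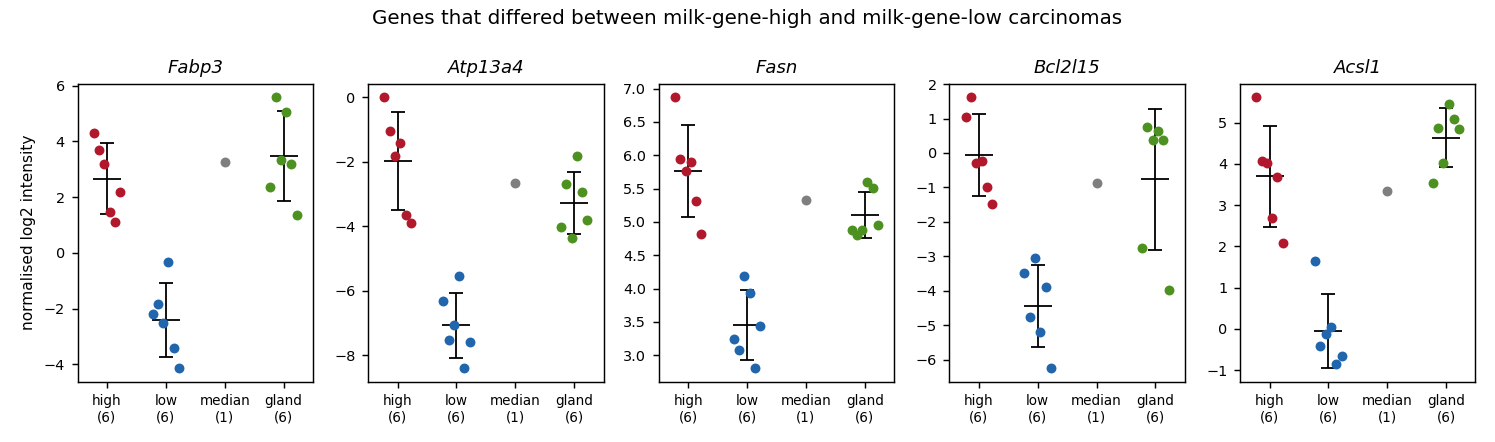
Normalised log2 intensity of the 5 genes that passed the test in milk-gene-high carcinomas (6), milk-gene-low carcinomas (6), the median carcinoma (1) and normal glands (6). Points within each carcinoma group run from the highest milk score at the left, and black bars are the mean ± SD. No low carcinoma reaches the lowest high carcinoma in any of the 5 panels.

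Slide and array brightness were also taken into account. Within slide 2, with 3 high carcinomas and 1 low carcinoma, the 5 differences were 1.99 to 5.98, and within slide 3, with 3 high and 2 low, they were 2.33 to 5.13. With slide as a block they were 2.20 to 5.28, with limma adjusted p between 0.243 and 0.476, and no gene passed. With array brightness as a covariate they were 2.14 to 4.91, with adjusted p of 0.0689 to 0.0954. For Bcl2l15 the difference was 3.21 on slide 2, 3.41 on slide 3 and 3.33 with slide as a block, against 4.39 over all 12 carcinomas. For Acsl1 it was 2.90 on slide 3, against 3.76 over all 12.

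Several of these genes are also strongly expressed by fat cells. Adipoq, the adiponectin gene that marks adipocytes, was at -8.80 to -4.66 (median -7.21) in milk-gene-high carcinomas, against -6.74 to -2.73 (median -4.84) in milk-gene-low carcinomas and 3.99 to 5.17 in normal glands. It was well above background on 2 of 6 high arrays and on 5 of 6 low arrays, and its difference was -2.21 ± 0.74 (SE, n = 6 each, limma adjusted p = 0.659). Of 25 listed adipocyte genes 20 were tested, 11 with a positive difference and 9 with a negative one, and Acsl1 alone passed. The list's mean level, each gene centred on its carcinoma mean, was -0.53 to 0.54 in the high group, against -0.50 to -0.12 in the low group and 5.26 to 6.15 in glands. Among the members, differences were positive for Cd36 (2.89), Lpl (1.53), Sncg (1.29), Gpd1 (0.93), Lipe (0.65) and Cidec (0.47), and negative for Rbp4 (-0.90), Dgat2 (-0.76), Cfd (-0.09) and Fabp4 (-0.07). The list median was 0.12, and -0.02 without carcinoma 13. The part of fat cells in the results was not tested.

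The next smallest p-values belonged to 5 genes that did not pass and whose groups did not overlap. They were Slc15a2 (2.64 ± 0.42, limma adjusted p = 0.0571), the peptide transporter that recovers small peptides in epithelia, Bbox1 (2.04 ± 0.34), the last enzyme of carnitine synthesis, and Tc2n (2.35 ± 0.40). The others were Hsd17b2 (2.92 ± 0.51), which oxidises oestradiol to oestrone, and Lao1 (4.84 ± 0.90), an L-amino acid oxidase known from mouse milk. Adjusted p for these 4 was 0.0771 to 0.16. Slc15a2, Hsd17b2 and Bbox1 were well above background on 1 of 6 low arrays each, against 6, 6 and 4 of 6 high arrays. Like Atp13a4, these genes met the filter on dim probes only through the high group. Lao1 was 0.67 or above in every high carcinoma and 0.12 or below in every low carcinoma, with carcinoma 13 again the highest of the low group.

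Milk protein genes outside the score had some of the largest differences of the transcriptome, yet none passed the test. Of 21 listed genes tested, 14 had a positive difference and 7 a negative one, with a median of 0.98, against a median of 0.01 over all genes. Csn1s2a, another calcium-sensitive casein, was at 5.14 to 7.51 (median 6.79) in milk-gene-high carcinomas, against -8.80 to 6.32 (median -2.59) in milk-gene-low carcinomas. Its difference was 8.76 ± 2.00 (SE, n = 6 each, limma adjusted p = 0.304). Among low carcinomas carcinoma 13 had 6.32 and carcinoma 5 had -8.80, so the low group spanned most of the gene's range.

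Glycam1, a mucin-like protein of milk that also marks lymph node vessels, was at -0.71 to 9.16 (median 5.74) in the high group, against -7.08 to 5.78 (median -2.87) in the low group (6.98 ± 1.98, limma adjusted p = 0.579). Of 9 listed lymph node stroma genes 7 were tested, Glycam1 among them. The other positive difference was that of Madcam1 (0.32), and Ccl19 (-1.33), Ltb (-0.63), Ccr7 (-0.38), Cxcl13 (-0.38) and Ccl21 (-0.05) had negative ones. None passed, and the part of lymph node tissue was not tested. Csn1s2b was at -5.05 to 3.82 (median -4.45) in the high group, against -8.27 to -1.38 (median -5.45) in the low group (2.70 ± 1.57, adjusted p = 0.933). For Csn1s2b only carcinomas 7 and 12 lay above the low group's highest value.

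Further list members named from here on were chosen after their values were seen. Pigr, which carries immunoglobulin A across the epithelium into milk, had a difference of 4.97 ± 1.18, Cel, the bile-salt lipase of milk, 2.95, and the mucin Muc15 2.94. Not every milk component had a higher value in the high group. Slpi (-1.13), Wfdc18 (-0.64) and Chi3l1 (-0.48), all secreted proteins, had negative differences, and Spp1 (0.29) was near 0.

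Milk fat globule genes were the only one of 29 lists whose mean level did not overlap between the groups, at -0.05 to 1.94 in milk-gene-high carcinomas, against -1.63 to -0.12 in milk-gene-low carcinomas. Of 16 genes tested 13 had a positive difference, the median was 1.30, and Fabp3 passed. Btn1a1, the butyrophilin of the globule membrane, was at -2.23 to 1.48 (median -1.69) in the high group, against -7.46 to -2.51 (median -4.01) in the low group. Its groups did not overlap, but its difference of 3.56 ± 0.83 (SE, n = 6 each) had a limma adjusted p of 0.304. Xdh, the xanthine oxidoreductase that joins butyrophilin at the droplet surface, was at 2.45 to 5.79 (median 2.92) in the high group, against -1.06 to 3.04 (median 1.83) in the low group, and did not pass (1.94 ± 0.70, adjusted p = 0.693). Abcg2, which pumps riboflavin into milk (3.73), the fatty acid receptor Cd36 (2.89), the droplet coat gene Plin2 (1.61) and the droplet GTPase Rab18 (0.97) had positive differences, while the syntaxin Stx3 had -0.62.

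Fatty acid synthesis genes lay higher on the whole by smaller amounts. Of 27 tested, 22 had a positive difference, the median was 0.44, and Fasn passed. Olah, the thioesterase that ends fatty acid chains early to give the medium-chain fats of rodent milk, had a difference of 3.74, and Thrsp, a regulator of lipogenesis, 3.01. Me1 (1.54), Acaca (1.45) and Acly (1.05), which supply NADPH, malonyl-CoA and acetyl-CoA, stood with them, as did the lipase Lpl (1.53). The acyltransferase Dgat1 (0.01), the elongase Elovl6 (0.05) and the transcription factor Mlxipl (0.04) were near 0, and Dgat2 was at -0.76. The list's mean level was -0.15 to 0.70 in milk-gene-high carcinomas, against -0.72 to -0.08 in milk-gene-low carcinomas.

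Among 28 genes for the transport of ions, sugars and amino acids into milk, 17 had a positive difference, the median was 0.32 and none passed. The phosphate carrier Slc34a2 (4.54), the calcium pump Atp2b2 (4.26), which exports calcium into milk, and the nucleoside carrier Slc28a3 (2.41) had the largest differences. The glucose transporter Slc2a1 (-0.32), the sodium-iodide carrier Slc5a5 (-0.06) and the zinc exporter Slc30a2 (-0.02), which loads zinc into milk, showed no such excess.

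The regulators of milk genes showed a mixed picture. Elf5 was at 2.41 to 4.43 (median 3.09) in milk-gene-high carcinomas, against -4.70 to 2.83 (median 0.88) in milk-gene-low carcinomas and 3.11 to 4.32 in normal glands. In the low group 5 of 6 carcinomas lay below every high carcinoma, and carcinoma 1 did not. The difference was 3.17 ± 1.02 (SE, n = 6 each) and did not pass (limma adjusted p = 0.654), and a second probe gave 2.67.

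Stat5a was at a median of 3.37 in the high group, against 2.10 in the low group, and ranged from 2.77 upwards in the high group and from 1.40 to 4.02 in the low group. Its difference was 1.39 ± 0.45 (limma adjusted p = 0.651), and carcinoma 1 was the only low carcinoma within the range of the high group. Stat5b, the second Stat5 gene, differed by 0.31 ± 0.38 and Cish, which Stat5 induces, by 0.64 ± 0.42, both within the spread of the groups. Cish was at -1.97 to 0.47 in the high group, against -2.36 to -0.92 in the low group.

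Prlr, the prolactin receptor gene, was not higher in the high group. It was at -2.88 to -0.41 (median -0.87) there, against -4.43 to 1.14 (median 0.61) in the low group, and its difference was -0.78 ± 0.83 (SE, n = 6 each, limma adjusted p = 0.982). Carcinomas 9, 1, 8 and 5 of the low group lay above every milk-gene-high carcinoma, while carcinoma 2 was lowest of all. Over the whole list of 29 regulators 15 differences were positive and 14 negative, the median was 0.13 and none passed. That median was -0.15 without carcinoma 13 and -0.14 on slide 3 alone. Jak2 (-0.68), Erbb4 (-1.26) and Socs3 (-0.96) had negative differences, and Socs2 (0.84) and Nfib (0.67) positive ones.

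The oestrogen and progesterone receptor genes did not distinguish the groups. Esr1 averaged -6.35 ± 1.08 in milk-gene-high carcinomas and -5.91 ± 1.29 in milk-gene-low carcinomas (SD, n = 6 each), close to background in both, with its probe well above background on 3 of 6 high arrays and 4 of 6 low arrays. Pgr averaged -2.72 ± 2.06 in the high group and -2.67 ± 1.14 in the low group, a difference of -0.05 ± 0.85 whose sign turned under several alternatives. Of 20 hormone-sensing genes 9 differences were positive and none passed. Stc2 (-1.98) and Tff3 (1.70) were the extremes.

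**Figure D4:**
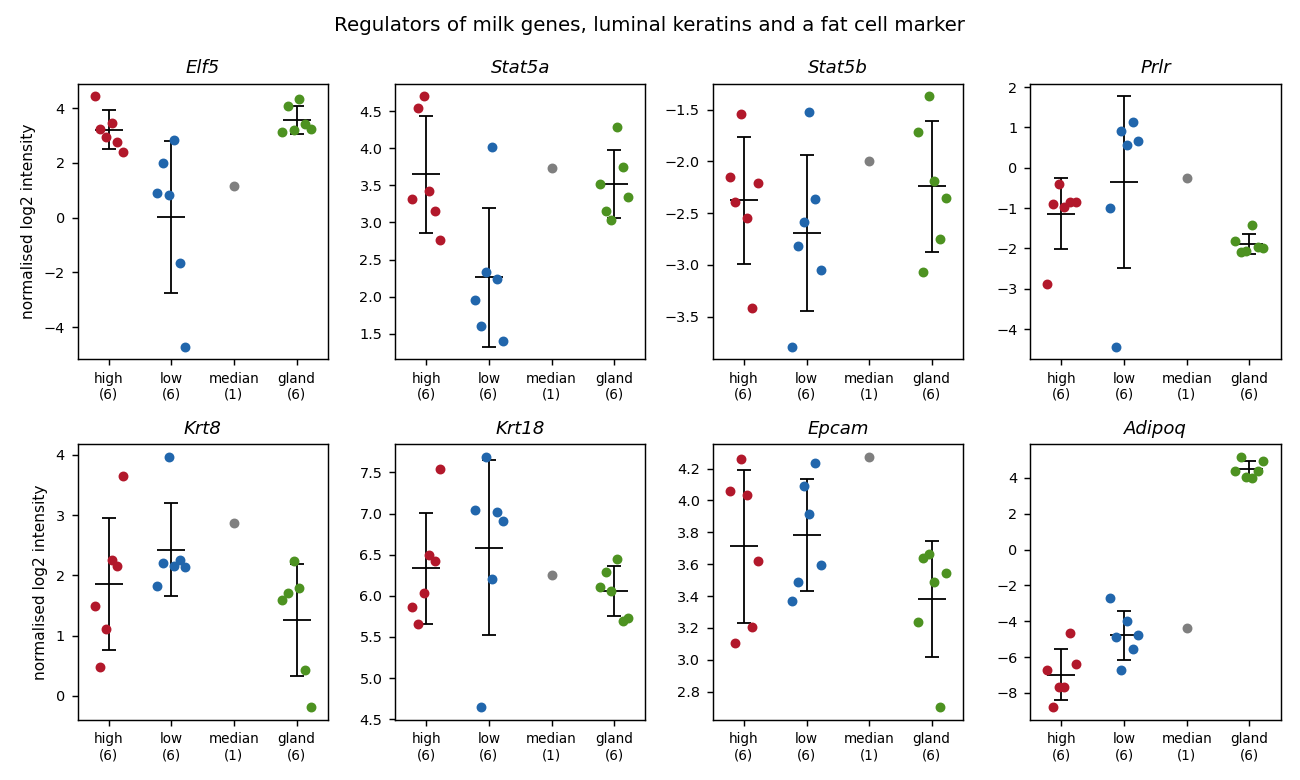
Normalised log2 intensity of the milk gene regulators Elf5, Stat5a, Stat5b and Prlr, of the luminal genes Krt8, Krt18 and Epcam, and of the adipocyte marker Adipoq, in milk-gene-high carcinomas (6), milk-gene-low carcinomas (6), the median carcinoma (1) and normal glands (6). Points run from the highest score at the left, and black bars are the mean ± SD. Elf5 and Stat5a have higher means in the high group, Prlr does not, and the luminal genes overlap. None of the 8 genes passed the test.

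Luminal epithelial genes were expressed in both groups, and none passed the test. Krt8 averaged 1.86 ± 1.10 in milk-gene-high carcinomas and 2.42 ± 0.77 in milk-gene-low carcinomas, Krt18 6.33 ± 0.67 in the high group and 6.58 ± 1.06 in the low group, and Epcam 3.71 ± 0.48 in the high group and 3.78 ± 0.35 in the low group (SD, n = 6 each). Each array detected all 3 genes above background. Of 29 listed luminal genes 28 were tested, 16 with a positive difference and 12 with a negative one, with a median of 0.04, and the list's mean level was -0.27 to 0.26 in the high group, against -0.70 to 0.24 in the low group. With that level as a covariate the 5 passed genes kept differences of 2.32 to 5.12, with limma adjusted p of 0.0541 to 0.0564. A p above the threshold does not show that luminal levels were equal.

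Luminal progenitor genes, a list that includes the casein gene Csn1s2a, had 12 of 15 positive differences with a median of 0.78 and no call. Tspan8 (1.55), Folr1 (1.53), Mfge8 (1.48) and Plet1 (0.99) stood highest after Csn1s2a, and Kit, the receptor of progenitor cells, had 0.36 ± 0.51. Basal and myoepithelial genes had 2 of 21 positive differences and a median of -0.51, with no call. Krt14 averaged 1.64 ± 2.30 in the high group and 3.04 ± 0.99 in the low group, and Acta2 2.20 ± 1.94 in the high group and 2.75 ± 1.07 in the low group (SD, n = 6 each). Carcinoma 7 stood far below the rest, with -2.88 for Krt14 and -1.55 for Acta2. On slide 3 alone the basal list's median was 0.0028. Without carcinoma 7 it was -0.20, and Acta2 changed sign to 0.20.

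Mast cell genes had the largest list difference in either direction, with values lower in milk-gene-high carcinomas, and no gene passed. Of 11 genes tested 10 had a negative difference and 7 had an unadjusted p under 0.05, against 2.17% of all genes in that direction, and the median was -2.97. The tryptase genes Tpsab1 (-4.13 ± 1.58) and Tpsb2 (-3.92 ± 1.33), the chymase genes Cma1 (-3.69) and Mcpt1 (-3.57), the carboxypeptidase Cpa3 (-3.23) and the histamine-forming enzyme Hdc (-2.97) stood together. The list's mean level ranged from -3.90 to 1.28 in the high group, against -1.96 to 2.61 in the low group, so the groups overlapped. The median was -4.65 with slide as a block, -1.97 with normexp, and -0.41 over the 4 genes whose probes were above background on all 13 arrays.

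Red blood cell genes were also lower in value in milk-gene-high carcinomas: all 6 tested had a negative difference and none passed. All 6 had an unadjusted p under 0.05, against 2.17% of all genes in that direction. The list's mean level was -2.34 to 0.52 in the high group, against -0.35 to 1.74 in the low group, so the groups overlapped. The median was -1.68, with -1.33 with slide as a block, -0.31 on slide 2 alone and -2.02 on slide 3 alone. Ahsp, the alpha-haemoglobin chaperone, had -2.41 ± 0.47, the band 3 gene Slc4a1 -2.40, the haem enzyme gene Alas2 -1.81, and the globin genes Hba-a1, Hbb and Hbb-b1 -1.55, -1.52 and -1.51. Hbb and Hbb-b1 are near-identical copies whose probes may share signal. The part of blood and mast cells in the results for other genes was not tested.

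Stromal and immune lists gave no call. Fibroblast and collagen genes had 20 of 21 negative differences with a median of -0.55, led by Dcn (-2.24) and Fn1 (-1.56), but with slide as a block the median turned to 0.44, and on slides 2 and 3 alone to 0.31, while without carcinoma 13 it was -1.15. Interferon response genes had 22 of 23 negative differences and a median of -0.52, led by Cxcl10 (-1.94), and kept the sign with slide as a block (-0.36). Their median was -0.10 on slide 2 alone and -0.53 on slide 3 alone. The mean level of that list was -0.99 to 0.90 in the high group, against -0.84 to 0.93 in the low group, so the groups overlapped. Macrophage genes had 18 of 23 negative differences (median -0.34), T and NK cell genes 15 of 21 (median -0.36) and neutrophil genes 9 of 11 (median -0.77), and with normexp these medians were -0.19, -0.04 and -0.23. On slide 2 alone the macrophage median was 0.14 and the neutrophil median 0.43, and without carcinoma 13 the neutrophil median was -0.28. B and plasma cell genes had 7 of 8 positive differences (median 0.31).

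Cell cycle genes had 31 of 33 positive differences with a median of 0.45 and no call, and none had an unadjusted p under 0.05. Rrm2 (0.75), Nusap1 (0.72) and the mitotic kinase Aurka (0.70) had the largest values. The median was 0.13 without carcinoma 13 and -1.10 on slide 2 alone. The list's mean level was -1.16 to 1.19 in milk-gene-high carcinomas, against -1.72 to 1.36 in milk-gene-low carcinomas, so the groups overlapped over most of their range.

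**Figure D5:**
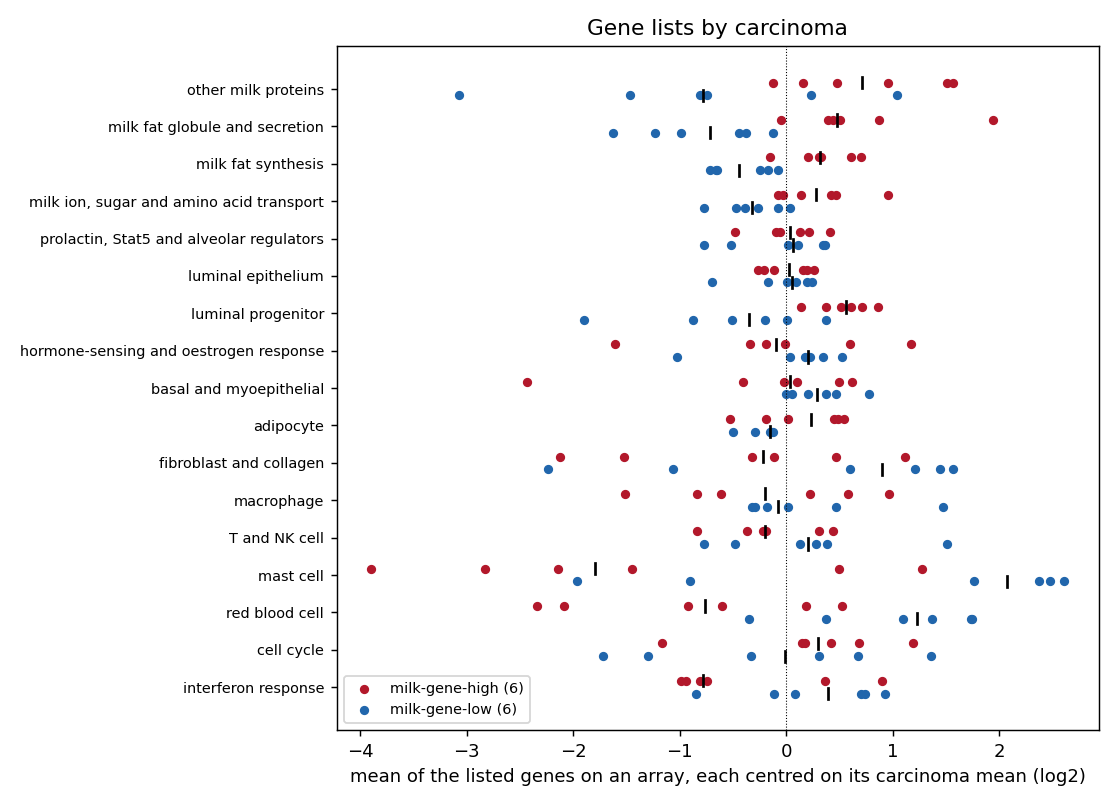
Mean level of 17 gene lists in each carcinoma (horizontal axis, log2, each gene centred on its mean over the carcinomas), with milk-gene-high carcinomas above milk-gene-low carcinomas in each row and black ticks at the medians. The milk fat globule list does not overlap between the groups. Mast cell and red blood cell lists sit lower in the high group with overlap, and the luminal list overlaps in both groups.

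The score can also be read as a number over all 13 carcinomas, which uses the wide spread within the low group. In that fit 24 genes were higher with the score (0.191%) and 3 were lower (0.0238%) at a limma adjusted p under 0.05. Milk genes outside the score were now among the calls: Csn1s2a by 1.48 ± 0.15 log2 units per unit of score (adjusted p = 0.000583), Pigr by 0.83 ± 0.10, Elf5 by 0.59 ± 0.08 (adjusted p = 0.00687), Btn1a1 by 0.55 ± 0.09, Glycam1 by 1.23 ± 0.20 and Xdh by 0.36 ± 0.07. Of the 5 genes above, Fabp3, Bcl2l15 and Acsl1 were among the calls. The fit uses the same score and carcinomas that formed the groups, so this is not separate support. Of the 5, only Acsl1 passed in this fit without carcinoma 5, and none passed without carcinoma 7 or with slide as a block. Those lower with the score were the lipoxygenase gene Alox15 (-0.41 ± 0.06), the medium-chain acyl-CoA synthetase gene Acsm3 (-0.52 ± 0.10) and the calcium pump gene Atp2a3 (-0.36 ± 0.07).

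These calls leaned on the tumours at the ends of the score. Without carcinoma 5 there were 9 higher and none lower, without carcinoma 7 9 higher and 1 lower, and without carcinomas 5 and 8 none in either direction, with 610 genes at an unadjusted p under 0.05.

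The genes whose pattern was most like the score, by Pearson correlation over the 13 carcinomas, were Jakmip3 (0.948), Csn1s2a (0.935), Wfdc3 (0.930), a whey acidic protein domain gene, Pigr (0.920), the p38 kinase gene Mapk11 (0.912) and the neuropeptide gene Nmb (0.895). The most opposed were the splicing factor gene Syf2 (-0.907), Alox15 (-0.879), Spata6 (-0.865), the enoyl-CoA isomerase gene Ech1 (-0.860), the mannosidase gene Man1c1 (-0.849) and Acsm3 (-0.831). These correlations describe 13 tumours and carry no test. The lowest scores weigh on them: Jakmip3 was at -7.31 in carcinoma 8 and -8.47 in carcinoma 5, against -4.49 or above in all others. Wfdc3 was at 1.09 to 5.48 (median 2.39) in milk-gene-high carcinomas, against -7.21 to 2.83 (median -2.53) in milk-gene-low carcinomas. Second probes did not follow for 2 of the genes: Jakmip3 differed between the groups by 4.05 with the probe used and by -0.08 with another, and Mapk11 by 3.74 and by -0.32.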

How the data were processed

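Total RNA was labelled with Cy3 and hybridised to 19 single-colour arrays. Per the submitters' processing notes, images were read by Agilent Feature Extraction 10.7.3.1. The deposited scanner files hold spot intensity after background subtraction, per the file headers, and the authors' deposited table holds log2 values, whose scale and centring were read from the values. Here each array's log2 intensity was reduced by its 75th percentile over 58717 non-control spots, with outlier spots missing. Probes were named through RefSeq accessions in the current rat gene table, giving 18005 of 30367 probes a symbol. A gene needed a probe well above background (at least 0.5 of its spots) on at least 6 of 13 carcinoma arrays, and the probe with the highest carcinoma mean was used. Groups were compared with limma 3.58.1 in R 4.3.3 (group only, variance trend, 2-sided, Benjamini-Hochberg over 12598 genes, threshold 0.05). The 5 score genes were left out.

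The normexp alternative (offset 50) used median spot signals in place of means. On data simulated for this comparison over 12598 genes, 62% of genes changed by a log2 of 2 and 98% of those changed by 4 were called. Of the calls, 6.43% were false. In the real data Csn1s2a (8.76 ± 2.00) and Glycam1 (6.98 ± 1.98) differed by more than 4 and were not called. The simulated shares thus do not carry over to genes with a wide spread, and a gene without a call may differ by more than 4. The number of arrays limits precision. Groups, members, gene lists and the naming rule were chosen with earlier results of these data known. The rule named genes past the test, the 10 smallest p-values, fixed milk, regulator and marker genes, and the 6 highest and 6 lowest correlations with the score. The labels do not say that samples are separate animals, and the p-values treat the samples as independent. If some samples shared an animal, these p-values would not hold. Motif matches used RefSeq promoters on GRCr8, which held 3 of the 5 passed genes.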

Additional observations from a re-analysis of the deposited data

Results flagged for a closer look

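Of 90 checks of a group of 6 carcinomas for a named gene, 8 held a carcinoma far from the others by Dixon's criterion (8.89%). Of 45 such checks of the 6 normal glands, 0 held such a gland. Chance gives about 1 in 20 for independent, normally distributed values. The genes checked are related and some were chosen by their values, so these shares do not show an excess over chance. Carcinoma 7, which has the highest milk score, gave 3 of the 8, each as the lowest of the milk-gene-high group. It was at -2.883 for Prlr with the next at -0.9703, at -2.881 for Krt14 with the next at 1.471, and at -1.546 for Acta2 with the next at 2.316. It also had the lowest share of spots well above background, and its part in these values was not tested. In the milk-gene-low group Acsl1 was highest in carcinoma 13, at 1.642 with the next at 0.04842. Stat5a was highest in carcinoma 1, at 4.018 with the next at 2.326. Krt8 was highest in carcinoma 9, at 3.967 with the next at 2.252. Carcinoma 2 was lowest for Esr1, at -8.395 with the next at -6.061, and lowest for Acta2, at 0.7676 with the next at 2.817.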

How the results depend on the processing

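The 5 genes kept a positive difference in every alternative, from 4.16 to 5.77 for Fabp3, 2.35 to 6.08 for Atp13a4, 1.97 to 2.53 for Fasn, 3.14 to 5.13 for Bcl2l15 and 2.90 to 4.50 for Acsl1 among the alternatives that compare the groups, and passed in 15 to 17 of 34 or 35. Higher calls numbered 5 with quantile normalisation, the deposited table, outlier spots kept or no filter on dim probes, 4 with normexp, 3 with probes above background on all 13 arrays, 7 without a variance trend, 12 (and 2 lower) for the 5 highest against the 5 lowest, and 9 with a score without Lalba. They numbered 0 for the 4 highest against the 4 lowest, a score without Csn1s1, slide or scan day as a block, number-coded carcinomas, brightness or the luminal level as a covariate, and, chosen after seeing the data, slides 2 and 3, slide 2 or slide 3 alone, with 413 to 1169 genes at an unadjusted p under 0.05. Without carcinomas 7 and 13 there were 2. Leaving out 1 carcinoma gave 0 to 7 higher and 0 to 1 lower. With the score as a number, calls were 24 and 3, then 9 and 0 without carcinoma 5, 9 and 1 without carcinoma 7, 0 and 0 without carcinomas 5 and 8, and 6 and 1 with slide as a block. The cause was not tested. The groups kept all members under scores without Wap, Csn2 or Csn3, and 1 was exchanged under a score without Csn1s1 or Lalba or from quantile-normalised values.

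List medians moved on slide 2 alone, where 1 low carcinoma remains, to 2.07 for milk fat globule, 0.63 for adipocyte, 0.87 for endothelium, -0.31 for red blood cell, -1.10 for cell cycle and 0.58 for involution. On slide 3 alone they moved to -6.18 for mast cell and 0.78 for cholesterol synthesis. Of 29 list medians, 12 changed sign on slide 2 alone, 6 on slide 3 alone, 6 with slide as a block, and 11 in at least 1 of the comparisons that left out 1 carcinoma. With probes above background on all 13 arrays adipocyte moved to 0.49 and mast cell, with 4 genes left, to -0.41, and T and NK cell was at -1.01 for 4 against 4. With normexp, which put the median of all genes at 0.11, list medians turned to 0.12 for hormone-sensing, 0.15 for Schwann cell, 0.04 for lymph node stroma and 0.02 for ErbB, FGF and IGF genes. Signs turned in genes that did not pass. Pgr was 0.14 for 5 against 5, 0.38 for a score without Lalba, 0.31 with normexp, 0.010 for number codes, 0.40 with brightness, 0.68 without carcinomas 7 and 13, 0.10 per unit of score without carcinoma 7, and -0.62 to 0.61 with 1 carcinoma left out. Epcam was 0.039 without Lalba, 0.13 for number codes, 0.022 on slide 2 and -0.18 to 0.051 with 1 carcinoma left out. Acta2 was 0.041 with brightness, -0.95 to 0.20 with 1 carcinoma left out (0.20 without carcinoma 7) and 0.21 without carcinomas 7 and 13. Esr1 was 0.14 for 5 against 5 and 0.10 with normexp, Cish -0.57 and Krt8 0.054 on slide 3, and Kit -0.12 on slide 2. Per unit of score without carcinoma 5, and without 5 and 8, Stat5b was -0.026 and -0.037 and Kit -0.017 and -0.16. No paired analysis was possible because the 2 carcinoma groups share no replicate numbers. Signal near background limits Atp13a4, Slc15a2, Bbox1, Hsd17b2, Adipoq and Esr1.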

Other observations

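Cholesterol synthesis, which shares its acetyl-CoA supply with milk fat, had 19 of 22 positive differences, milk-gene-high minus milk-gene-low, but a median of only 0.22 and no call. The median was 0.08 without carcinoma 13, 0.11 without carcinoma 7 and -0.21 on slide 2 alone. Idi1 (0.77), Mvd (0.57) and Tm7sf2 (0.57) stood highest. Genes of the endoplasmic reticulum and its unfolded protein response had 22 of 31 positive differences and a median of 0.20. The translocon-associated gene Ssr1 (0.75) and the disulfide isomerase gene Pdia4 (0.48) led, and the chaperone Hspa5 had 0.24. Genes of amino acid synthesis under Atf4 had 6 of 17 positive differences, from Cbs (-2.18) to Phgdh (1.20).

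Among growth factor genes Igf2 (1.55 ± 2.48, SE), the insulin receptor substrate Irs1 (1.42 ± 0.42), Igfbp5 (1.29 ± 0.56) and Igf1 (1.18 ± 0.84) had the largest positive differences. For Igf2 the error exceeded the difference. Igfbp6 (-1.61 ± 0.77) and Erbb4 (-1.26 ± 0.66) had the most negative ones. Their list had 14 of 31 positive and none passed. Involution genes had 10 of 25 positive, with Tgfb3 (1.51), Igfbp5 (1.29) and Lcn2 (0.83) above 0 and Mmp3 (-1.29) and Timp1 (-1.02) below. Endothelial genes had 5 of 13 positive (median -0.07), Schwann cell genes 5 of 13 (median -0.12), skeletal muscle genes 3 of 19 (median -0.39), lymph node stroma genes 2 of 7 (median -0.38) and squamous genes 6 of 8 (median 0.24). No member of these lists passed. The 9289 tested probes without a gene symbol gave no call, with 361 at an unadjusted limma p under 0.05.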
